A study of Mus musculus with 18 samples.

Results

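The 47 genes described here drive the cell cycle and DNA replication. They were chosen by gene name from a fixed list of G1/S and replication genes, mitotic genes, cyclins, cyclin-dependent kinases (CDKs), E2F factors and CDK inhibitors, and all 47 were found among the 55487 gene identifiers of the count table. Their expression was measured by RNA sequencing of natural killer (NK) cells, in 18 libraries of 6 groups with 3 libraries each. All 47 passed the filter on low counts, and the least abundant, Mybl2, had at least 5 reads in every library.

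All mice carried Ncr1 CRE-ERT2 and were Rosa YFP/YFP, and those that gave the knock-out (KO) cells were also Acly fl/fl, unlike those of the wild-type (WT) cells. Both genotypes therefore carried the YFP reporter and the Cre driven from Ncr1, a gene of NK and related innate lymphoid cells, and both received the tamoxifen that activates it, as a diet for 48 hours. Splenic NK cells positive for YFP were sorted 5 days after the diet ended. The 3 conditions were fresh cells, cells primed for 72 hours with IL-15 at 100 ng/ml, a cytokine that keeps NK cells alive and makes them divide, and primed cells washed and then stimulated for 6 hours on a plate coated with reagent against the activating receptor NKG2D at 20 ug/ml. No group was cultured without IL-15, or washed and plated without the reagent against NKG2D. Changes on priming or after NKG2D therefore cannot be told apart from those of culture, washing or time. Acly encodes ATP-citrate lyase, an enzyme that turns cytosolic citrate into acetyl-CoA. The sources used here do not give the ages of the mice or say whether the 3 libraries of a group came from separate animals. A p-value here therefore reflects only how far libraries scatter within groups, with the spread of a gene estimated over all 6 groups.

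Resting lymphocytes enter the cycle when D-type cyclins with CDK4 or CDK6 phosphorylate the retinoblastoma family of pocket proteins. Phosphorylation frees the E2F factors, which switch on cyclin E, the genes that license and fire replication origins, and the enzymes that supply deoxynucleotides. A later wave of genes, controlled by B-Myb, FoxM1 and the DREAM complex through CHR promoter elements, brings cells through G2 and mitosis, while CDK inhibitors hold them back. The 47 genes were read in that order, as 7 classes.

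Library totals ranged from 14772300 reads in primed KO replicate 1, which held 14695 genes with a read, to 34367538, and the remaining libraries held no fewer than 17877 genes. Acly was expressed at 15.3 to 25.5 CPM (counts scaled to library size) in fresh KO cells against 232 to 265 in fresh WT cells, at 38.1 to 48.9 against 227 to 279.6 CPM in primed cells, and at 28.2 to 41.9 against 128 to 193 CPM after NKG2D. The 9 NK cell markers were detected in every group. Their sum was 20506 to 24364 CPM in fresh KO and 19584 to 21319 CPM in fresh WT cells, and 14014 to 18033 against 17010 to 20543 CPM in primed cells. After NKG2D it was 7326 to 8687 CPM in KO and 10430 to 11767 CPM in WT cells, without overlap. There Prf1, Gzma and Ncr1 lay lower in every KO library, and Eomes and Klrk1 lay higher. In each group 1 of the 3 libraries had more Xist than Y-linked reads. By these reads the libraries of a group differed in sex, and the model had no term for it. Primed WT replicate 3 stood apart from the other primed WT libraries in several of the 47 genes, which are named where they occur. In bulk RNA, more cells in cycle and more RNA of these genes per cell cannot be told apart.

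The class levels compare the 3 conditions. Each is the median, over the genes of a class, of the deviation of log2 CPM from the gene's mean over the 18 libraries. Mitotic genes averaged -3.28, 1.61 and 1.71 in fresh, primed and NKG2D-stimulated KO cells, and -3.06, 1.61 and 1.41 in the same conditions of WT cells. They were thus low in all 6 fresh libraries and high in all 12 cultured ones. The licensing and firing genes averaged -1.37, 1.21 and 0.80 in KO cells and -1.38, 0.91 and -0.14 in WT cells. After NKG2D the 3 KO libraries (0.64 to 0.92) lay above the 3 WT libraries (-0.26 to -0.07) in this class. D cyclins and CDK4/6 averaged 0.02, 0.67 and -0.92 in KO cells and 0.01, 0.62 and -0.41 in WT cells. This class median was lowest after NKG2D in both genotypes, but its genes differed. By mean CPM, Ccnd2 and Ccnd3 were lowest after NKG2D in both genotypes, whereas Cdk4 and Cdk6 were lowest in fresh cells.

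**Figure D1:**
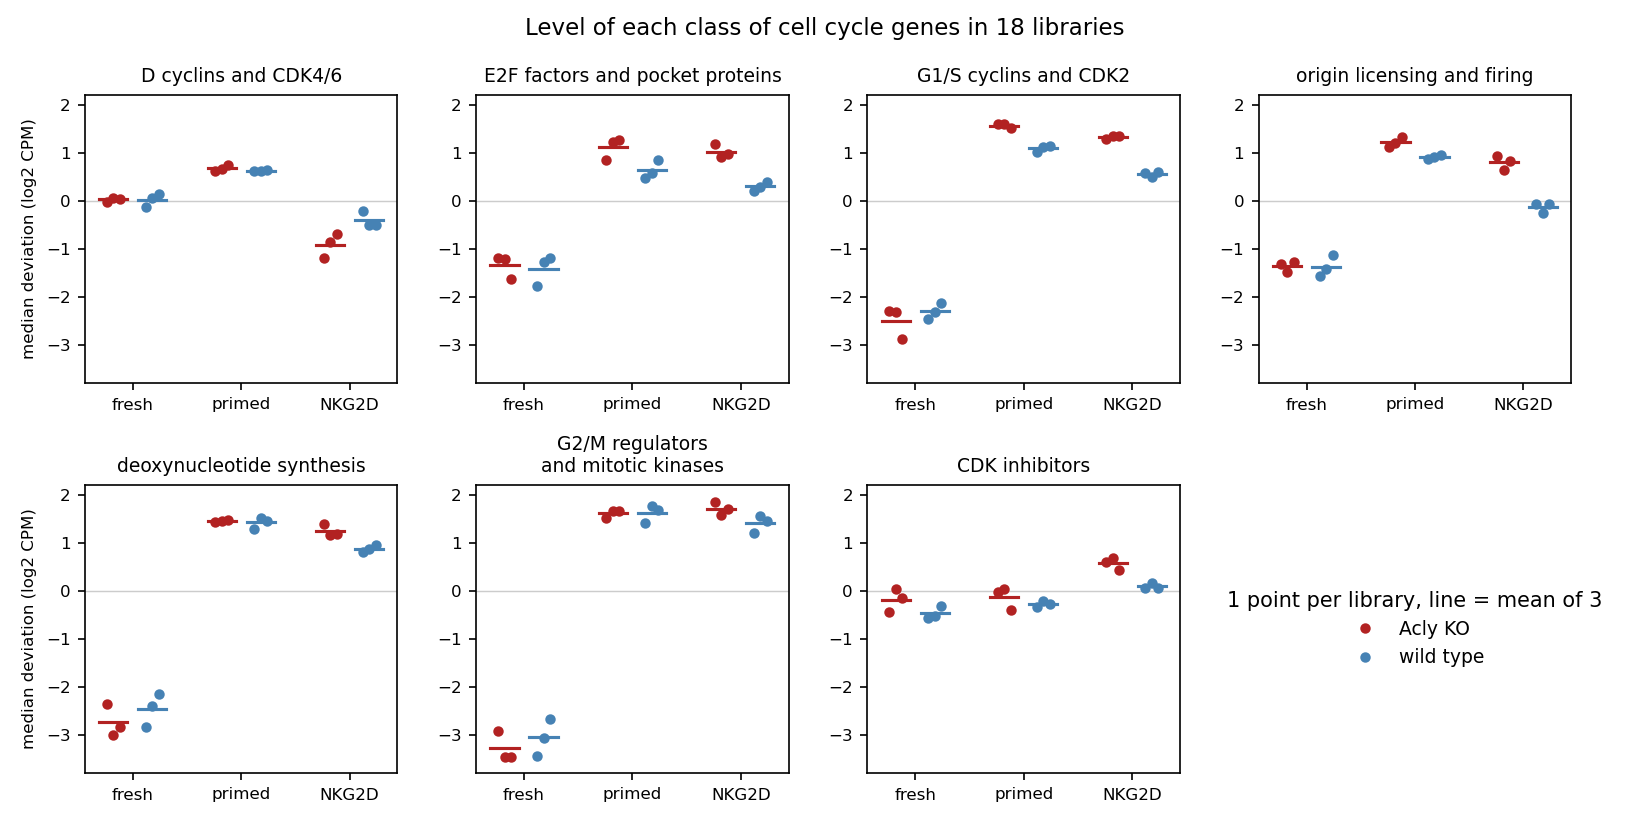
Median deviation of log2 CPM for the 7 classes in the 18 libraries, with Acly KO in red left of wild type in blue in each condition; a point is 1 library and a line the mean of 3. Licensing and firing genes after NKG2D lie between 0.64 and 0.92 in KO libraries, above all 3 WT libraries, while the mitotic class lies above 1.2 in all 12 cultured libraries.

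Short motifs were searched in the promoters of these genes. RefSeq windows of 250 bases before to 50 bases after the start of transcription (GRCm38.p6) were on hand for 40 of the 47 genes, as 45 windows. An E2F type motif, TTTCGCGC or TTTGGCGC on either strand, was in 8 of these windows (17.8%), against 0.813% of all 32851 windows in the table. A CHR type motif, TTTGAA or TTCGAA on either strand, was in 15 (33.3%) against 19.2% of all windows. The CCAAT box was in 30 (66.7%) against 37.4%. By class, the E2F type motif was in 5 of 11 windows of licensing and firing genes and in 1 of 13 windows of mitotic genes, whereas the CHR type motif was in 3 of 11 and 10 of 13. The genes with an E2F type motif were Mcm3, Mcm5, Mcm6, Mcm7, Cdt1, E2f2, Rbl1 and Cdk1. These matches are letters in a window and not measured binding.

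The sequences that follow are the 250 bases before the start of 2 licensing genes with the E2F type motif, 2 mitotic genes with the CHR type motif and Cdk1, which had both, since these genes recur in the results. Capitals mark the E2F type and CHR type motifs, and each sequence reads 5′ to 3′ on the strand of its gene. In Mcm5 (GRCm38.p6, chr8:75109259-75109508, plus strand) and in the upstream copy of Mcm6 (chr1:128359706-128359955, minus strand) a match on 1 strand overlaps a match on the other. Top2a is at chr11:99024190-99024439, Mki67 at chr7:135716380-135716629 and Cdk1 at chr10:69352913-69353162, all on the minus strand.
Mcm5: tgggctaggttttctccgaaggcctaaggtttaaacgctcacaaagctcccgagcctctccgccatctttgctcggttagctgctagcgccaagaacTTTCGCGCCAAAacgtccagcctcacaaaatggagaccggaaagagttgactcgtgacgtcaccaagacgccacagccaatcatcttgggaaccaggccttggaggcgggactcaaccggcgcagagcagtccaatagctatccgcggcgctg
Mcm6: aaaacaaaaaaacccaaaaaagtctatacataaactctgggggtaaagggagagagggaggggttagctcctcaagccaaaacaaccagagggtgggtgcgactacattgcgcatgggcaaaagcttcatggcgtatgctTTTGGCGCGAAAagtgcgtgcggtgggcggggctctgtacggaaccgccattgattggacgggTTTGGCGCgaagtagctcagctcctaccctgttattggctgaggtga
Top2a: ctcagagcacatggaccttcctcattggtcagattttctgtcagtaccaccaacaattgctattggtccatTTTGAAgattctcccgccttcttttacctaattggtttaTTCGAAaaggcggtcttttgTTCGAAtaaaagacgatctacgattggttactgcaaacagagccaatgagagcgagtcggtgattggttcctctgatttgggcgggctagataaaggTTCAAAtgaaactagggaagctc
Mki67: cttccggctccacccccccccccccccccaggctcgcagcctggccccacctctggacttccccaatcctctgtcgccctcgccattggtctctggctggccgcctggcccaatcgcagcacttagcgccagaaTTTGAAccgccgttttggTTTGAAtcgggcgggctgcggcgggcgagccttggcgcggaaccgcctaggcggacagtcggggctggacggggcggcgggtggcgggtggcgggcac
Cdk1: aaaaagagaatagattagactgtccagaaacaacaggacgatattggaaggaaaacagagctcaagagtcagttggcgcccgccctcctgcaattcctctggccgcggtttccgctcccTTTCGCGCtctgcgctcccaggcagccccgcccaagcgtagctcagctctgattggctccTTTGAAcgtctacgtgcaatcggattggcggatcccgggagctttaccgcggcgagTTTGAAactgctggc

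Nearly all of these genes were higher in cells primed with IL-15 than in fresh cells, in both genotypes. In KO cells 42 of the 47 were higher and 1 lower in primed than in fresh cells, where 23.0% and 25.7% of all 14864 genes tested were higher and lower. In WT cells 40 were higher and 2 lower, against 26.5% and 27.2% of all genes. The median log2 fold change over the 47 was 3.79 in KO and 3.36 in WT cells, and over all genes it was -0.06 in both. A gene is counted as higher or lower at an adjusted p below 0.05 in edgeR's quasi-likelihood test with Benjamini-Hochberg adjustment over all genes tested. Markers of other cells changed over the same comparison: the 8 T cell markers summed to 32.4 to 39.7 CPM in primed and 65.5 to 76.7 CPM in fresh KO cells, and to 41.6 to 76.0 against 38.1 to 89.0 CPM in WT cells. The 7 myeloid markers summed to 37.2 to 41.4 CPM in primed and 16.5 to 16.9 CPM in fresh KO cells, and to 51.8 to 65.8 against 19.3 to 26.6 CPM in WT cells. Of these, Cd68 was higher when primed (log2 fold change 1.69 in KO and 2.16 in WT cells), and Lyz2, S100a8, S100a9 and Adgre1 were at 0 in all primed libraries. The 8 erythroid markers summed to 82.5 to 111 CPM in primed and 23.8 to 26.1 CPM in fresh KO cells, and to 80.1 to 115 against 124 to 208 CPM in WT cells, with Hbb-bs, Hbb-bt, Hba-a1 and Hba-a2 at 0 when primed and Tfrc the most abundant. The part of these markers in the priming values was not tested.

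All 15 mitotic genes, all 4 deoxynucleotide genes and all 4 cyclins E and A with CDK2 rose in both genotypes. Top2a, the topoisomerase that untangles replicated chromosomes, had 926, 908 and 777 CPM in primed KO cells against 42.3, 32.6 and 28.9 CPM in fresh KO cells. Its primed WT values were 557, 646 and 626 CPM, against 33.5, 43.9 and 46.5 CPM in fresh WT cells. Neither pair of groups overlapped, and the log2 fold changes of 4.65 (SE 0.163, adjusted p = 5.91e-13) in KO and 3.88 (SE 0.157, adjusted p = 3.78e-12) in WT cells differed by 0.77 (SE 0.199, adjusted p = 0.0204). Cdk1, the mitotic kinase, reached 128, 162 and 164 CPM in primed KO cells against 5.53, 4.35 and 3.91 CPM in fresh KO cells. In WT cells it reached 156, 189 and 158 CPM when primed, against 4.10, 5.02 and 8.01 CPM when fresh. Its log2 fold changes were 5.04 in KO and 4.89 in WT cells, and their difference of 0.16 did not pass (95% interval -0.43 to 0.75, adjusted p = 0.771). The largest fold changes of the class belonged to Ccnb1, which encodes cyclin B1, at 5.92 in KO and 6.07 in WT cells.

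The responses themselves differed between the genotypes in 8 of the 47 genes, 7 of them larger in KO cells and 1 smaller, where 4.08% and 6.41% of all genes differed upward and downward. Of the E2F factors, E2f8, an atypical repressor of the family, was at 41.4, 39.1 and 37.3 CPM in primed KO cells against 1.31, 0.749 and 0.868 CPM in fresh KO cells. In WT cells it was at 28.2, 31.7 and 33.6 CPM when primed, against 0.968, 0.751 and 0.681 CPM when fresh. That is 40.1-fold higher in primed KO and 38.3-fold higher in primed WT cells (adjusted p = 5.70e-13 and 1.34e-12). E2f2, an activator, rose with a log2 fold change of 1.89 in KO and 0.73 in WT cells, and the difference of 1.16 between the responses passed (SE 0.209, adjusted p = 0.00245). Rb1, the retinoblastoma gene, did not pass in either genotype (0.46 and 0.45).

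Among the licensing and firing genes all 11 rose in KO and 10 of 11 in WT cells, the exception being Mcm6. The rise of Cdt1 in WT cells (0.69, adjusted p = 0.0164) was lost without fresh WT replicate 2 or 3 or primed WT replicate 3 (adjusted p = 0.0505 to 0.129). Cdc6, which loads the MCM helicase on origins, had 142, 127 and 132 CPM in primed KO cells against 3.67, 2.00 and 3.26 CPM in fresh KO cells. Primed WT cells had 84.3, 89.8 and 88.6 CPM, against 1.55, 2.21 and 4.56 CPM in fresh WT cells. The primed groups lay far above the fresh ones, with log2 fold changes of 5.48 in KO and 5.01 in WT cells. Pcna, the sliding clamp of the replication fork, rose by 2.03 in KO and 1.43 in WT cells, and this difference of 0.61 passed (SE 0.13, adjusted p = 0.00740). Ribonucleotide reductase, which makes deoxynucleotides, rose in both subunits: Rrm2 by 5.44 in KO and 4.81 in WT cells, and Rrm1 by 2.94 and 2.31, of which the Rrm1 difference of 0.62 passed (adjusted p = 0.00739).

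The D cyclins and CDK inhibitors moved in several directions. Cdk6 rose by 1.99 in KO and 2.64 in WT cells and Cdk4 by 1.16 and 1.29, while Ccnd2, for cyclin D2, stood at 859 to 1051 CPM in primed and 911 to 1059 CPM in fresh KO cells, and at 859 to 1055 against 877 to 1151 CPM in WT cells. Ccnd3, for cyclin D3, had 221, 205 and 156 CPM in primed KO cells against 249, 219 and 206 CPM in fresh KO cells. In WT cells it had 114, 99.3 and 229 CPM when primed, against 326, 351 and 362 CPM when fresh, so that primed WT replicate 3 lay well above the other 2 primed WT libraries. It fell in WT cells (log2 fold change -1.23, adjusted p = 4.13e-04) and did not pass in KO cells (-0.21, adjusted p = 0.497), but the difference of 1.02 between the responses did not pass (SE 0.342, adjusted p = 0.0646). Cdkn1b, for the inhibitor p27, fell by 0.85 in KO and by 1.36 in WT cells, whereas Cdkn1a, for p21, rose by 2.05 and 1.39. The KO fall of Cdkn1b was lost without fresh KO replicate 1 or 2 or primed KO replicate 3 (adjusted p = 0.0617 to 0.0891).

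**Figure D2:**
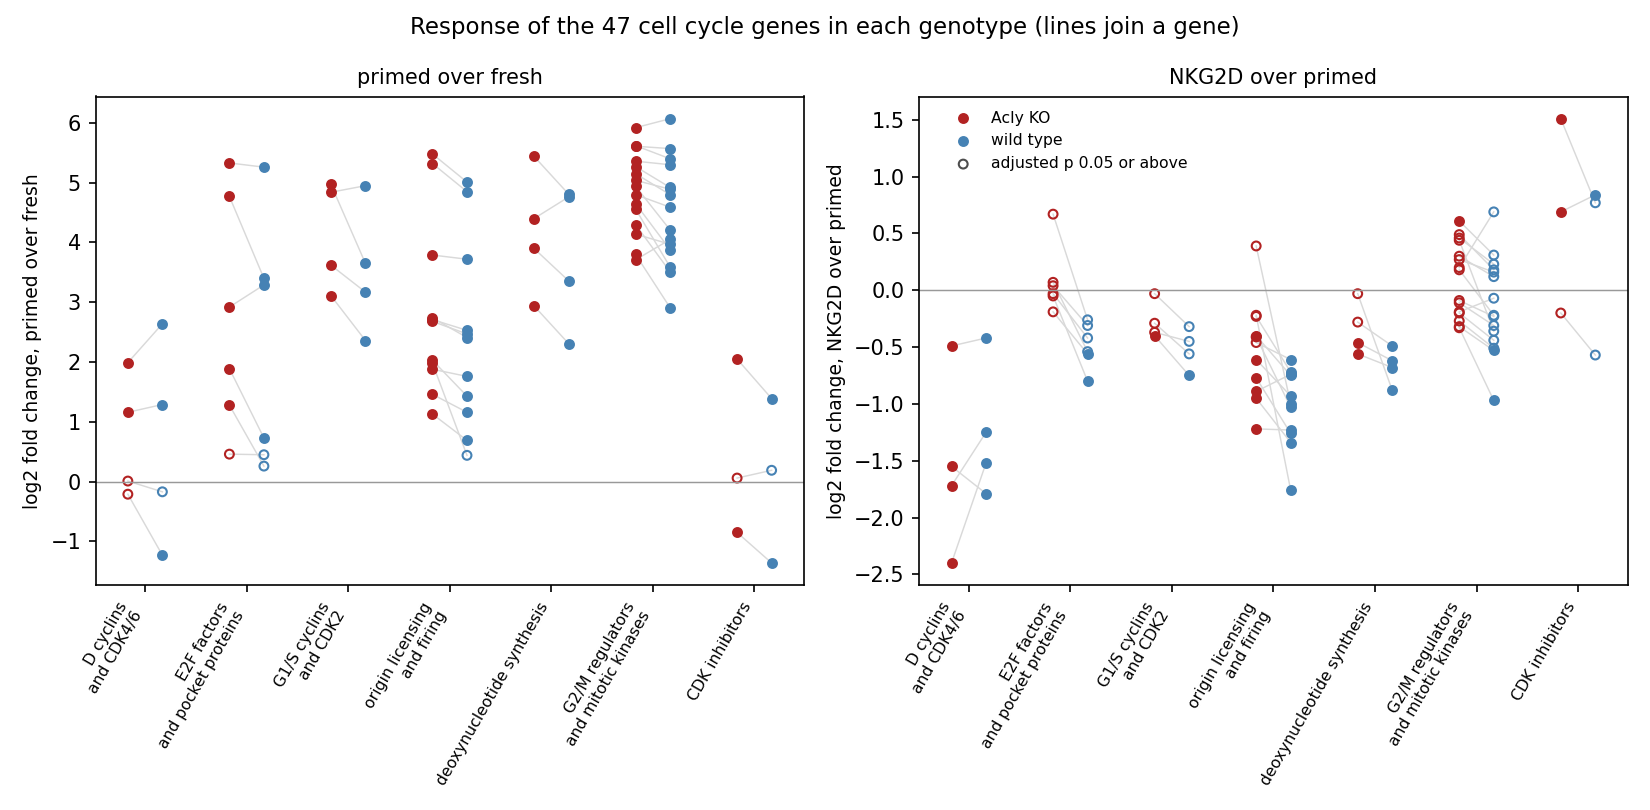
Log2 fold change of each of the 47 genes by class, primed over fresh on the left and NKG2D over primed on the right, with KO in red left of WT in blue; a line joins a gene in the 2 genotypes and an open circle did not pass adjusted p 0.05. All 11 WT licensing and firing genes lie below 0 after NKG2D and passed. In KO cells all of them but Cdt1 lie below 0, and 6 of the 11 passed.

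In fresh cells, where the comparison asks what loss of Acly does before culture, 0 of the 47 genes passed in edgeR, with 0.0135% of all genes higher and 0.0538% lower in KO than in WT cells. At an unadjusted p below 0.05, 7 were lower and 0 higher, where 6.53% and 6.28% of all genes were. The median log2 fold change over the 47 was -0.20, against 0.01 over all genes. The edgeR test used a spread shared by all conditions. Its common coefficient of variation between replicates was 0.2341, against 0.1624 among fresh libraries. In fresh cells the 3 KO libraries lay below the 3 WT libraries for 9 of the 47, where this was so for 12.8% of all genes, and above them for 1, where this was so for 14.1%. DESeq2 called 1 lower, where it called 0.818% of the genes to which it gave an adjusted p, and limma voom called 4 lower, where it called 6.71% of all genes. Of the 47, 4 were lower in the authors' deposited table, as were 7.15% of all its genes, so that the share of the 47 was close to that of all genes. Cdk2, which with cyclin E starts S phase, had 6.76, 6.10 and 4.65 CPM in KO against 7.63, 9.34 and 8.53 CPM in WT cells (log2 fold change -0.55, SE 0.136, adjusted p = 0.205). Mcm6, a subunit of the replicative helicase, had 108, 46.1 and 52.6 CPM in KO against 134, 156 and 162 CPM in WT cells (log2 fold change -1.13, SE 0.529, adjusted p = 0.385). Mki67, the gene of the proliferation antigen Ki-67, had 8.89, 4.85 and 5.61 CPM in KO against 7.05, 10.6 and 10.1 CPM in WT cells, and these ranges overlapped. Red cell transcripts differed between the same libraries: the 8 erythroid markers summed to 23.8 to 26.1 CPM in KO and 124 to 208 CPM in WT cells. The 7 myeloid markers summed to 16.5 to 16.9 CPM in KO and 19.3 to 26.6 CPM in WT cells. Of these, Csf1r (-1.70) and Adgre1 (-1.61) lay lower in every KO library without passing, and Cd68 overlapped. The T cell sums overlapped, at 65.5 to 76.7 CPM in KO and 38.1 to 89.0 CPM in WT cells. Their part in the fresh values was not tested.

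After priming, the KO cells had more RNA of several S phase genes than WT cells and of the mitotic genes only Top2a passed. Of the 47 genes 7 were higher and 2 lower in KO cells, where 7.0% and 8.52% of all genes were. The 7 were E2f2, E2f7, Ccne2, Mcm7, Pcna, Rrm1 and Top2a, and the 2 were Cdk6 and Tk1. The median log2 fold change was 0.20 over the 47 and -0.02 over all genes. All 3 KO libraries lay above all 3 WT libraries for 17 of the 47 and below them for 4, where this was so for 13.9% and 17.6% of all genes.

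E2f2 had 45.5, 57.2 and 49.6 CPM in primed KO cells against 20.6, 20.9 and 21.5 CPM in primed WT cells. Every KO library had more than every WT library, and the log2 fold change was 1.27 (SE 0.148, adjusted p = 2.70e-05). E2f7, the partner of E2f8 in repression, had 24.1, 25.5 and 23.7 CPM in KO against 11.4, 10.3 and 15.2 CPM in WT cells, also without overlap (log2 fold change 0.98, adjusted p = 0.00737). Ccne2, for cyclin E2, followed with 65.4, 70.6 and 60.5 CPM in KO against 27.8, 33.2 and 29.3 CPM in WT cells. The 2 groups did not overlap (log2 fold change 1.12, SE 0.218, adjusted p = 0.00214). Ccne2 shares 609 exonic bases with Ints8 on the opposite strand, and the sources used here do not say whether counting used the strand.

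Pcna had 428, 469 and 465 CPM in primed KO cells against 291, 331 and 272 CPM in primed WT cells, without overlap (log2 fold change 0.61, SE 0.0921, adjusted p = 2.80e-04). Rrm1 had 619, 583 and 555 CPM in KO against 384, 468 and 424 CPM in WT cells, again with every KO library higher (log2 fold change 0.46, adjusted p = 0.00307). The other licensing genes lay in the same direction, at 0.16 to 0.61. Of them Mcm7 alone passed, with 347, 363 and 396 CPM in KO against 269, 299 and 281 CPM in WT cells (0.38, adjusted p = 0.0202). In the authors' deposited table Cdc6, Mcm3, Mcm4, Mcm5 and Mcm10 were called higher as well. The exception in direction was Cdt1 (-0.06), with 19.4, 22.1 and 25.6 CPM in KO against 20.4, 17.8 and 31.8 CPM in WT cells. There primed WT replicate 3 lay above all other primed libraries. Against the direction of Pcna and Rrm1, Tk1, the salvage enzyme thymidine kinase, had 104, 117 and 125 CPM in KO against 179, 216 and 179.5 CPM in WT cells. All 3 KO libraries lay below the WT libraries (log2 fold change -0.73, adjusted p = 0.0171). Cdk6 had 285, 245 and 250.4 CPM in KO against 413, 386 and 473 CPM in WT cells, without overlap and in the same direction as Tk1 (log2 fold change -0.71, SE 0.138, adjusted p = 0.00230).

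Among the mitotic genes Top2a was higher in primed KO cells (log2 fold change 0.51, adjusted p = 0.0187), and the other 14 did not pass. The authors' deposited table also called Ccnb2 higher and Ccnb1 lower. Plk1, a kinase of mitotic entry, had 130.5, 120.5 and 139 CPM in KO against 128, 139 and 151 CPM in WT cells, which overlapped. Ccnb2, for cyclin B2, had 116, 129 and 118 CPM in KO against 71.6, 87.2 and 159.7 CPM in WT cells, and Cdc20, an activator of the anaphase-promoting complex, had 61.4, 37.9 and 55.0 CPM in KO against 28.2, 24.4 and 58.7 CPM in WT cells. In both genes primed WT replicate 3 lay far above the other 2 WT libraries, as it also did for Mcm6 at 412 CPM against 100.2 and 98.6 CPM. For Rbl1 it lay at 33.0 CPM against 17.5 and 19.6 CPM, where KO cells had 33.3, 32.7 and 28.2 CPM. Mcm6 also spread in primed KO cells, at 397, 261 and 155 CPM, with an SD of 121 against 180.5 CPM in primed WT cells. Without primed WT replicate 3 the number of the 47 that passed was 14 (12 higher and 2 lower). Mcm7 was lost without primed KO replicate 3 or WT replicate 1 (adjusted p = 0.0711 and 0.0844), Tk1 without KO replicate 1 or WT replicate 2 (0.0701 and 0.0850), and Top2a without KO replicate 1, KO replicate 2 or WT replicate 1 (0.0522 to 0.0821). Markers of other cells differed between these libraries too: the 8 T cell markers summed to 32.4 to 39.7 CPM in primed KO and 41.6 to 76.0 CPM in primed WT cells, with Cd4 at 0 in both. That list did not move as 1: Cd3g was lower in KO cells (log2 fold change -1.61, adjusted p = 0.00209) and Cd3d lay lower in every KO library (-0.98), whereas Trac (0.41) and Cd3e (1.85) lay higher in every KO library, none of the last 3 passing. The 7 myeloid markers summed to 37.2 to 41.4 CPM in KO and 51.8 to 65.8 CPM in WT cells, mostly from Cd68, with Lyz2, S100a8, S100a9 and Adgre1 at 0 in both. Their part in the genotype differences was not tested.

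**Figure D3:**
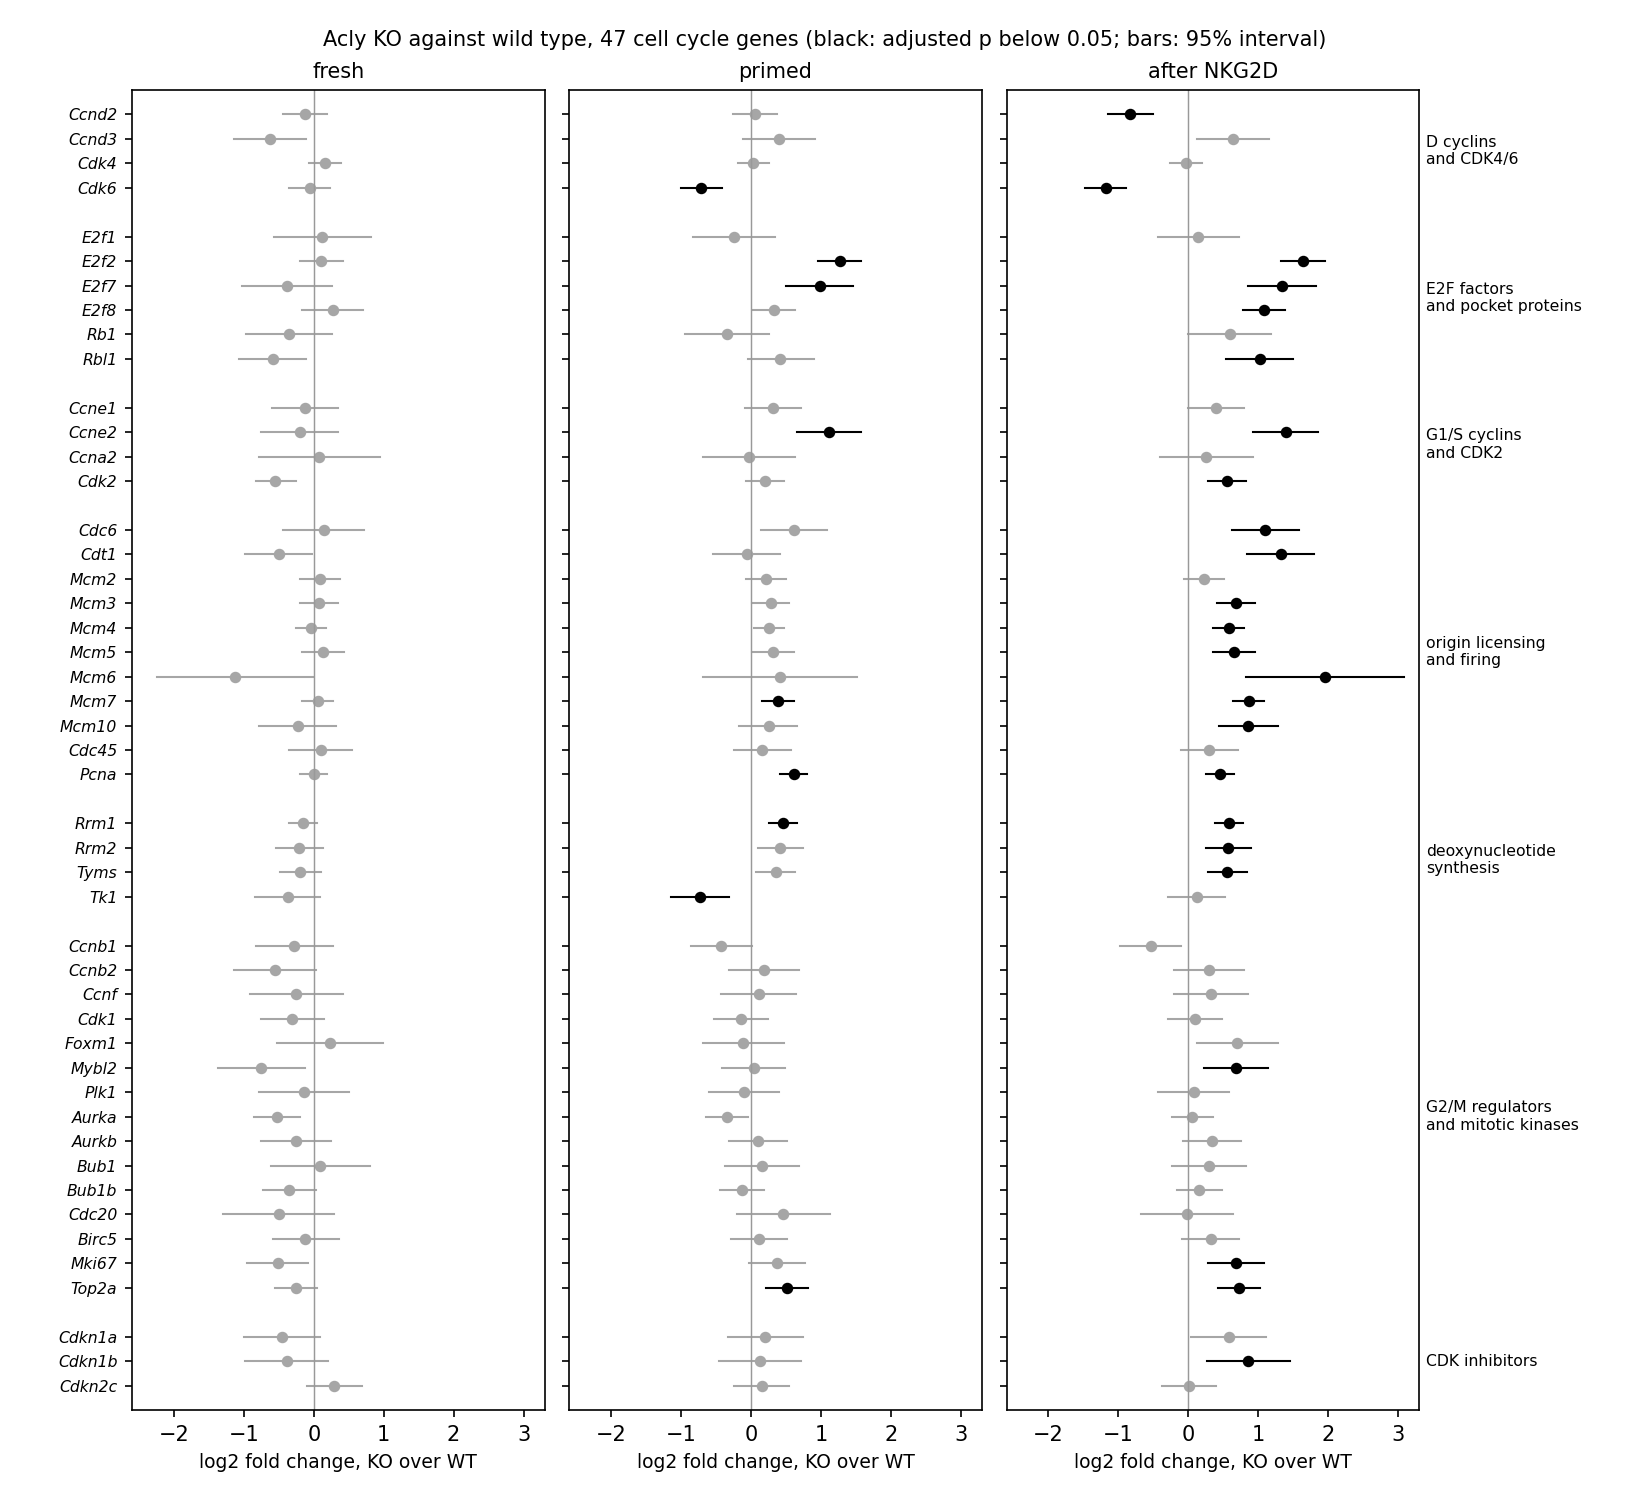
Log2 fold change of KO over WT for the 47 genes in fresh cells, primed cells and after NKG2D, with the 95% interval as a bar; black marks adjusted p below 0.05. In fresh cells 0 of the 47 passed, in primed cells 9, and after NKG2D 24, of which 9 are among the 11 licensing and firing genes.

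After NKG2D stimulation the genotypes differed in 24 of the 47 genes. In KO cells 22 were higher and 2 lower than in WT cells, where 8.75% and 9.47% of all genes were. The median log2 fold change was 0.56 over the 47 and 0.03 over all genes. All 3 KO libraries lay above all 3 WT libraries for 27 of the 47 and below them for 3, where this was so for 17.6% and 17.1% of all genes. By class, 9 of 11 licensing and firing genes, 4 of 6 E2F factors and pocket proteins, 3 of 4 deoxynucleotide genes, 2 of 4 cyclins E and A with CDK2, 3 of 15 mitotic genes and 1 of 3 CDK inhibitors were higher, and 2 of 4 genes among D cyclins and CDK4/6 were lower.

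Among the D cyclins and CDK4/6, Ccnd2 and Cdk6 were lower in KO cells. Ccnd2 had 189.9, 181 and 179.9 CPM in KO cells against 419, 293 and 268 CPM in WT cells, and Cdk6 had 64.4, 86.5 and 85.6 CPM against 199.9, 168 and 168 CPM. In both genes every KO library lay below every WT library (log2 fold change -0.83, SE 0.151, adjusted p = 0.00113 for Ccnd2, and -1.18, SE 0.140, adjusted p = 3.01e-05 for Cdk6). Cdk4 did not follow them, at 212 to 283 CPM in KO and 235 to 252 CPM in WT cells. Ccnd3 lay the other way, higher in every KO library, without passing, at 54.5, 64.2 and 80.8 CPM in KO against 52.3, 40.0 and 35.5 CPM in WT cells (log2 fold change 0.64, adjusted p = 0.0805).

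Of the E2F factors, E2f2 had 48.3, 39.4 and 45.8 CPM in KO cells against 12, 15.5 and 15.5 CPM in WT cells. No library of 1 genotype came near the other, and among the 47 only Mcm6 had a larger fold change (log2 fold change 1.64, SE 0.15, adjusted p = 2.63e-06). E2f7 had 25.6, 26.2 and 23.8 CPM in KO against 11.1, 9.44 and 9.22 CPM in WT cells, without overlap (1.34, adjusted p = 7.16e-04). E2f8 had 38.2, 37.1 and 38.7 CPM in KO against 16.9, 18.6 and 18.4 CPM in WT cells, where the libraries of each genotype lay close together (1.08, SE 0.144, adjusted p = 7.94e-05). Rbl1, for the pocket protein p107, had 22.9, 36.3 and 39.3 CPM in KO against 14.2, 18.7 and 15.6 CPM in WT cells, also without overlap (1.02, adjusted p = 0.00463). E2f1 had 13.9, 11.1 and 9.83 CPM in KO and 12.1, 9.06 and 10.3 CPM in WT cells, which overlapped.

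Cyclin E2 and 9 of the 11 licensing and firing genes were higher in KO cells. Ccne2 had 36.9, 64.5 and 59.7 CPM in KO against 19.3, 21.6 and 20.3 CPM in WT cells (log2 fold change 1.40, SE 0.220, adjusted p = 3.64e-04). Its kinase gene, Cdk2, had 38.5, 39.7 and 35.4 CPM in KO against 26.7, 26.1 and 24.9 CPM in WT cells. Both lay higher in every KO library, and Cdk2 differed by 0.55 (SE 0.128, adjusted p = 0.00671). Cdc6 had 73.5, 79.3 and 83.3 CPM in KO against 38.9, 34.3 and 36.8 CPM in WT cells, and Cdt1, which loads the helicase with Cdc6, had 32.4, 25.3 and 30.3 CPM against 10.6, 12 and 12.6 CPM. In both of these genes the KO libraries lay above the WT libraries, with log2 fold changes of 1.10 for Cdc6 (adjusted p = 0.00279) and 1.32 for Cdt1 (adjusted p = 7.55e-04).

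The helicase itself is a ring of 6 proteins, Mcm2 to Mcm7. Mcm7 had 370.2, 284 and 288 CPM in KO against 171, 168 and 177 CPM in WT cells, without overlap and with the smallest adjusted p of the class (log2 fold change 0.87, SE 0.106, adjusted p = 3.98e-05). Mcm3 had 285, 221 and 234 CPM in KO against 172, 144 and 145 CPM in WT cells, and Mcm4 had 215, 201 and 216 CPM against 153, 141 and 131 CPM. Both were thus higher in every KO library, by 0.68 and 0.58 on the log2 scale (adjusted p = 0.00130 and 9.38e-04). Mcm5 was higher by 0.65, and Mcm10, which helps start the fork, by 0.86. Mcm2 was not: it had 118, 80.5 and 87.6 CPM in KO against 89.6, 84.9 and 70.0 CPM in WT cells, which overlapped (0.23, 95% interval -0.06 to 0.52, adjusted p = 0.273). Mcm6 had 84.0, 286 and 328 CPM in KO against 64.4, 57.4 and 58.4 CPM in WT cells. Its KO replicate 1 lay near the WT libraries, and the fold change of 1.95 carried an SE of 0.540 (adjusted p = 0.0178).

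Of the fork and nucleotide genes, Pcna had 233, 257 and 243 CPM in KO against 173, 169 and 194 CPM in WT cells, without overlap (log2 fold change 0.45, adjusted p = 0.00248). Rrm1 had 392, 402 and 399 CPM in KO against 264, 271 and 263 CPM in WT cells, the libraries of a genotype within a few percent of each other (0.58, SE 0.0940, adjusted p = 4.60e-04). Rrm2 had 647, 850.2 and 750.4 CPM in KO against 476, 501 and 533 CPM in WT cells, and Tyms, for thymidylate synthase, had 192, 180.1 and 169.8 CPM against 117, 121 and 128 CPM. Neither gene overlapped between the genotypes, and they were higher by 0.57 and 0.56 in KO cells. Tk1, lower in primed KO cells, had 138, 96.1 and 105 CPM in KO against 99.4, 98.7 and 114 CPM in WT cells after NKG2D, and these overlapped.

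Of the mitotic genes, Top2a had 623, 749.5 and 715 CPM in KO against 392, 439.9 and 431 CPM in WT cells, without overlap (log2 fold change 0.72, SE 0.140, adjusted p = 0.00171). Mki67 had 112, 116 and 148 CPM in KO against 69.1, 75.1 and 90.6 CPM in WT cells, again with every KO library higher (0.68, SE 0.190, adjusted p = 0.0186). Mybl2, for B-Myb, had 4.95, 4.44 and 4 CPM in KO against 3.03, 2.43 and 2.86 CPM in WT cells (0.68, adjusted p = 0.0361). The other 12 did not pass, among them Cdk1 at 139.7, 139 and 117 CPM in KO against 107, 122 and 142 CPM in WT cells (0.09, 95% interval -0.29 to 0.48). Ccnb1 lay lower in every KO library, at 163, 126 and 140.5 CPM against 191, 206 and 229.9 CPM in WT cells, and did not pass (-0.54, adjusted p = 0.0766). Cdkn1b had 64.4, 171 and 149.9 CPM in KO against 59.5, 79.3 and 73.3 CPM in WT cells, so that KO replicate 1 fell within the WT range (0.86, adjusted p = 0.0406). Cdkn1a, at 224, 167 and 144 CPM in KO and 175, 93 and 89.9 CPM in WT cells, did not pass.

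Of these calls 5 did not hold when 1 library was left out. The adjusted p reached 0.0511 to 0.0907 for Mcm6, without any single library but KO replicate 1. It reached 0.0503 to 0.0823 for Rrm2, without KO replicate 2 or 3 or WT replicate 1, and 0.0728 to 0.109 for Mki67, without KO replicate 3 or WT replicate 1 or 2. For Mybl2 it was 0.0636 to 0.137 without any 1 of the 6 libraries, and for Cdkn1b 0.0679 to 0.219 without any but KO replicate 1. Of the 8 genes with an E2F type motif, such as Mcm5 and Mcm6 shown above, 7 were higher in KO cells, with Cdk1 the exception, and of the 32 others with a promoter window 13 were higher. The motif was commonest in the class that also had the most calls, so that motif and class cannot be told apart here. Markers of other cells differed between these libraries as well: the 8 T cell markers summed to 26.8 to 27.1 CPM in KO and 41.7 to 66.9 CPM in WT cells, with Cd8a and Cd8b1 at 0 in both. The 7 myeloid markers summed to 90.3 to 109 CPM in KO and 46.9 to 68.9 CPM in WT cells, mostly from Cd68, with Lyz2, S100a8 and S100a9 at 0 in both. The 8 erythroid markers summed to 12.2 to 13.9 CPM in KO and 25.9 to 49.8 CPM in WT cells, mostly from Tfrc, with Hbb-bs, Hbb-bt and Hba-a1 at 0 in both. Their part in the cell cycle values was not tested.

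**Figure D4:**
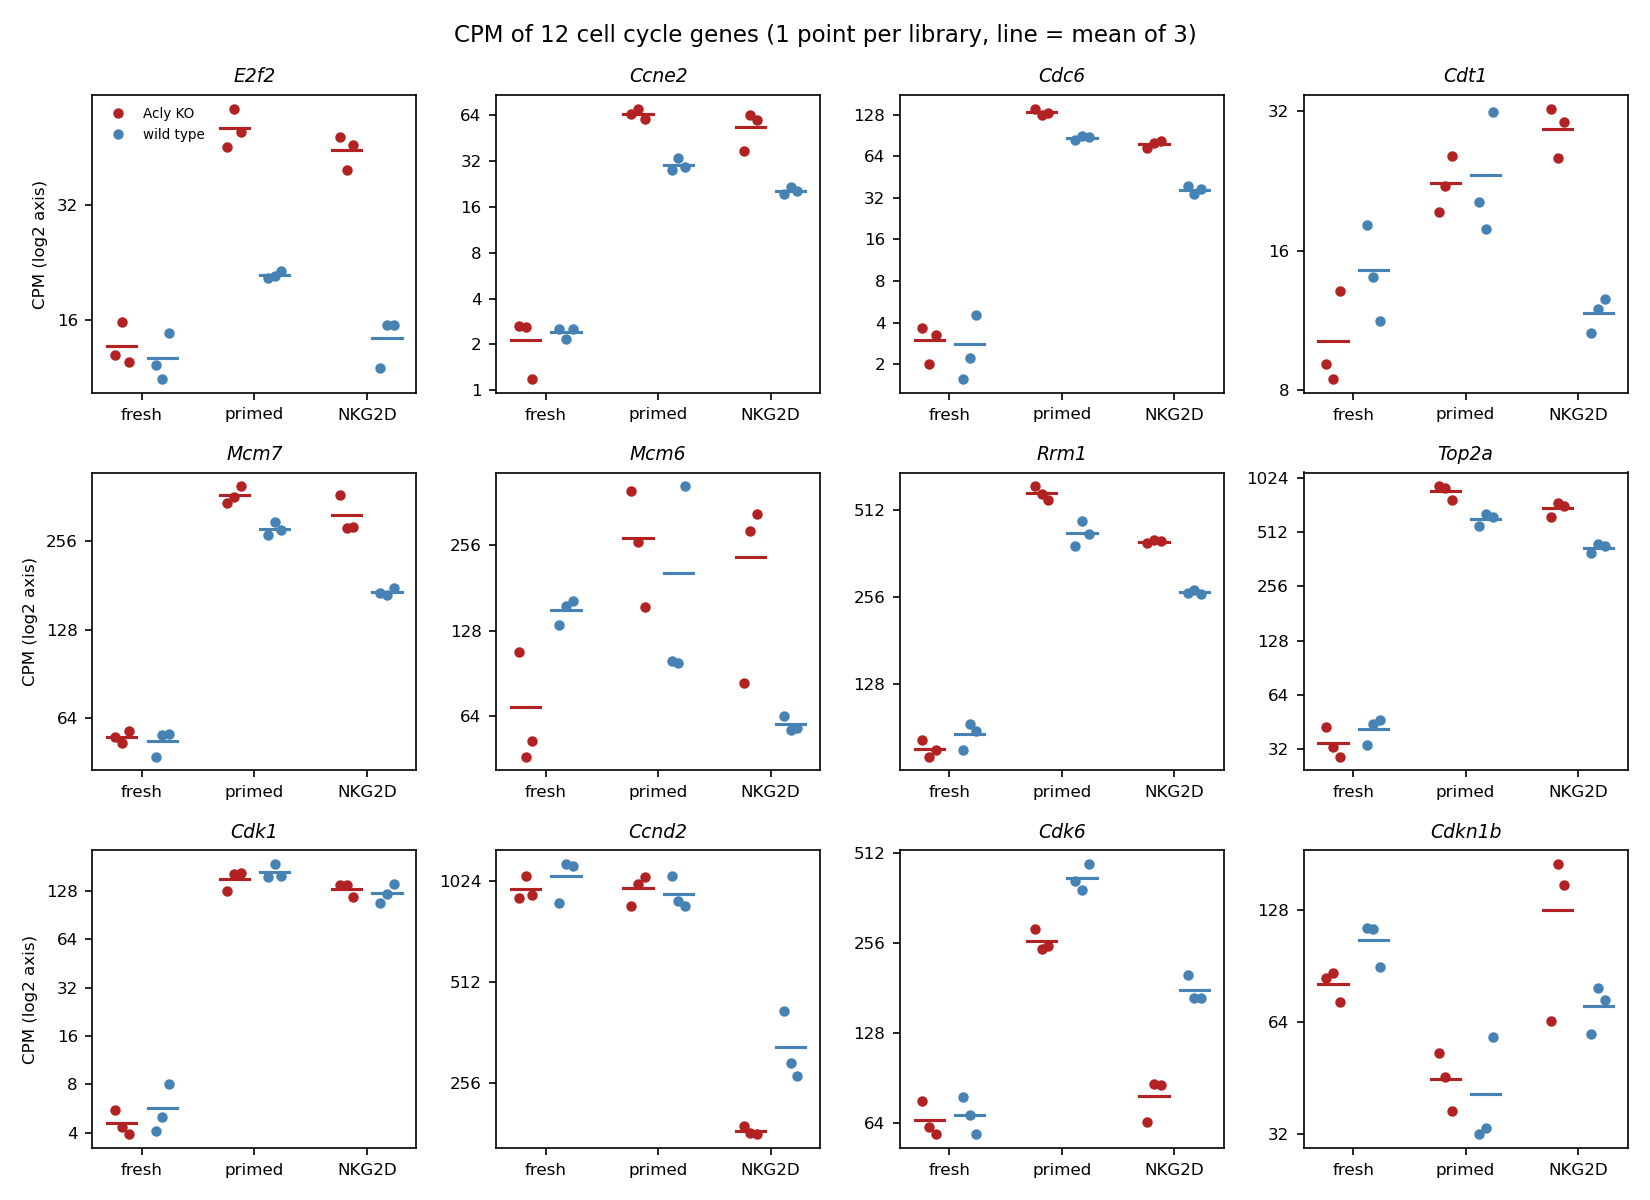
CPM of 12 of the genes on log2 axes, with KO in red left of WT in blue in each condition; a point is 1 library and a line the mean of 3. E2f2, Ccne2, Cdc6, Mcm7, Rrm1 and Top2a are higher in every KO than every WT library after NKG2D, Ccnd2 and Cdk6 are lower, Cdk1 overlaps, and Mcm6 and Cdkn1b spread widely between libraries of 1 group.

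Against the primed state, all 4 D cyclins and CDK4/6 were lower after 6 hours on NKG2D in both genotypes, and so were 6 of the 11 licensing and firing genes in KO and all 11 in WT cells. In KO cells 3 of the 47 were higher and 13 lower than in primed KO cells, where 18.4% and 16.9% of all genes were. In WT cells 1 was higher and 24 lower, where 9.20% and 10.7% of all genes were. The median log2 fold change over the 47 was -0.20 in KO and -0.54 in WT cells. These comparisons use the same primed and NKG2D libraries as the genotype comparisons above. Without a group washed and plated without the reagent, the wash and the 6 hours cannot be told apart from NKG2D. T cell marker sums after NKG2D and in primed cells were 26.8 to 27.1 against 32.4 to 39.7 CPM in KO cells. In WT cells they were 41.7 to 66.9 against 41.6 to 76.0 CPM. Myeloid marker sums were 90.3 to 109 against 37.2 to 41.4 CPM in KO and 46.9 to 68.9 against 51.8 to 65.8 CPM in WT cells. They came mostly from Cd68, at a mean of 96.8 against 39.2 CPM in KO and 58.2 against 56.7 CPM in WT cells. Lyz2, S100a8 and S100a9 were at 0 in both conditions of both genotypes. Erythroid marker sums were 12.2 to 13.9 against 82.5 to 111 CPM in KO and 25.9 to 49.8 against 80.1 to 115 CPM in WT cells, mostly from Tfrc. The part of these markers was not tested. Between the genotypes the NKG2D response differed upward for 2 of the 47 genes and downward for 1, where 1.49% and 2.07% of all genes differed.

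The smallest of the D cyclin and CDK4/6 changes was that of Cdk4, at -0.49 in KO cells (adjusted p = 0.00199) and -0.42 in WT cells (adjusted p = 0.0101), and the WT one was lost without primed WT replicate 2 (-0.35, adjusted p = 0.0570). Ccnd2 had 189.9, 181 and 179.9 CPM after NKG2D against 859, 1001 and 1051 CPM in primed KO cells, and 419, 293 and 268 CPM after NKG2D against 1055, 890.2 and 859 CPM in primed WT cells. The stimulated and primed libraries lay far apart in each genotype (log2 fold change -2.40, SE 0.158, adjusted p = 6.55e-09 in KO and -1.52, SE 0.153, adjusted p = 2.20e-06 in WT), and the difference of -0.89 between the responses passed (SE 0.212, adjusted p = 0.0281). Cdk6 fell by 1.72 in KO and by 1.25 in WT cells, and Ccnd3 by 1.55 and 1.79.

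All 11 licensing and firing genes fell in WT cells, with a class median of -1.0. In KO cells 6 of 11 passed as lower, all but Cdt1 had a log2 fold change below 0, and the class median was -0.46. Mcm2 fell in both: it had 118, 80.5 and 87.6 CPM after NKG2D against 211, 216 and 239.7 CPM in primed KO cells, and 89.6, 84.9 and 70.0 CPM after NKG2D against 186, 190.4 and 197 CPM in primed WT cells. Its log2 fold changes were -1.22 (adjusted p = 2.73e-06) and -1.23 (adjusted p = 6.16e-06), and their difference was 0.01 (95% interval -0.39 to 0.42). Mcm3 fell by 0.95 in KO and by 1.34 in WT cells, and Pcna by 0.89 and 0.74. Cdt1 fell in WT cells (-1.0, adjusted p = 0.00446) and did not pass in KO cells (0.39, adjusted p = 0.190), and the difference of 1.39 passed (SE 0.319, adjusted p = 0.0236). For the other 10 of the class the difference between the responses did not pass. The Mcm6 fall in WT cells (-1.76, adjusted p = 0.0274) was lost without primed WT replicate 3, at -0.73 and adjusted p = 0.302, and without any 1 of the NKG2D WT libraries (adjusted p = 0.0701 to 0.0888). The smaller falls of Mcm5 in KO cells and Cdc45 in WT cells were also lost without 1 of 4 libraries (adjusted p = 0.0706 to 0.175 and 0.0684 to 0.125).

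Of the cyclins E and A with CDK2, Cdk2 alone fell, by 0.40 in KO cells, which was lost without primed KO replicate 1 or NKG2D KO replicate 3 (adjusted p = 0.0520 and 0.0736), and by 0.75 in WT cells. Of the 6 E2F factors and pocket proteins, E2f2 and E2f8 fell in WT cells, E2f2 by 0.56, which was lost without NKG2D WT replicate 1 (adjusted p = 0.0765). The 6 did not pass in KO cells, where their median was 0.00. E2f8 had 38.2, 37.1 and 38.7 CPM after NKG2D against 41.4, 39.1 and 37.3 CPM in primed KO cells, which overlapped. In WT cells it had 16.9, 18.6 and 18.4 CPM after NKG2D against 28.2, 31.7 and 33.6 CPM when primed, and these did not overlap. The fold change was -0.05 in KO and -0.80 in WT cells, and the difference of 0.75 passed (SE 0.201, adjusted p = 0.0473). The E2f8 difference was lost without any 1 of the 12 libraries (adjusted p = 0.0537 to 0.127). That of Ccnd2 was lost without primed KO replicate 2 or 3, primed WT replicate 2 or 3, NKG2D KO replicate 3 or NKG2D WT replicate 1 (0.0577 to 0.0737), and that of Cdt1 without primed WT replicate 3, NKG2D KO replicate 3 or NKG2D WT replicate 1 or 2 (0.0507 to 0.0680). All 4 deoxynucleotide genes fell in WT cells, by 0.49 (Tyms) to 0.88 (Tk1), and 2 of 4 fell in KO cells (Rrm1 and Rrm2). The Tyms fall was lost without primed WT replicate 2 or NKG2D WT replicate 1 or 2 (adjusted p = 0.0563 to 0.0783), and the KO fall of Rrm2 without primed KO replicate 1 or 2 or NKG2D KO replicate 1 or 3 (0.0555 to 0.107).

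Of the 15 mitotic genes 1 passed in KO cells, upward, where 18.4% of all genes did, and 2 in WT cells, downward, where 10.7% did. These counts are thus near or below the shares of all genes. The 2 were Mybl2 (-0.97) and Top2a (-0.53), the second of which was lost without NKG2D WT replicate 1 (adjusted p = 0.0517). The class median was 0.18 in KO and -0.22 in WT cells. Bub1b, for the spindle checkpoint kinase BubR1, rose in KO cells, with 193, 169 and 162 CPM after NKG2D against 124, 114 and 105 CPM when primed (log2 fold change 0.61, adjusted p = 0.00476). Its WT values were 150.3, 167 and 150.3 CPM after NKG2D against 116, 135 and 126 CPM when primed, which did not overlap and did not pass (0.31, adjusted p = 0.167). Plk1 had 213, 119 and 147 CPM after NKG2D and 130.5, 120.5 and 139 CPM when primed in KO cells, and 148, 164 and 143 CPM after NKG2D and 128, 139 and 151 CPM when primed in WT cells, so that both pairs overlapped. The inhibitor gene Cdkn2c, for p18, rose in both genotypes, by 0.69 in KO and 0.84 in WT cells. Cdkn1b rose in KO cells (1.51, adjusted p = 5.26e-04), and its difference between the responses did not pass (0.73, adjusted p = 0.346).

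Beyond the 47, further genes of the same processes were read from 4 lists, all of whose genes were tested. Of all genes, 7.0% were higher and 8.52% lower in primed KO than in primed WT cells, and 8.75% higher and 9.47% lower in KO than in WT cells after NKG2D. Of 40 other replication fork and origin genes, 10 were higher in primed KO than in primed WT cells and 21 were higher after NKG2D, and the rest did not pass. Cdc7, the kinase that fires origins, was higher by 0.80 in primed KO cells (adjusted p = 0.00207), and Dnmt1, the maintenance DNA methyltransferase, and Pola1, the catalytic subunit of polymerase alpha, by 0.80 and 1.00 after NKG2D (adjusted p = 1.49e-04 and 2.34e-04). From the primed state to NKG2D, 18 of the 40 fell in KO and 29 in WT cells, where 16.9% and 10.7% of all genes fell. The rest of the 40 did not pass.

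Of 61 spindle, kinetochore, condensin and cytokinesis genes, 8 were higher and 1 lower in primed KO than in primed WT cells, and 15 higher and 1 lower after NKG2D. Tubb5, a beta tubulin, was higher by 0.68 and 0.86 (adjusted p = 1.17e-04 and 1.27e-05), and the lower one in both was Pttg1, for securin (-0.48 and -0.66). NKG2D against primed gave 5 higher and 5 lower in KO cells, where 18.4% and 16.9% of all genes were. In WT cells it gave 7 lower, about the 10.7% of all genes that were, and the rest did not pass.

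Of 28 genes of RB, E2F, DREAM and G1 control, 6 were higher and 2 lower in primed KO cells and 6 higher and 1 lower after NKG2D. Tob1, an anti-proliferative gene, was higher by 1.70 in primed KO cells (adjusted p = 0.00330), and Myc, which promotes G1 entry, was lower after NKG2D (log2 fold change -0.71, adjusted p = 0.0349). Against the primed state Myc fell by 4.14 on the log2 scale in KO and by 3.09 in WT cells. Of 24 p53 target and damage checkpoint genes, 4 were higher in primed KO cells, where the rest did not pass, and 7 higher and 2 lower after NKG2D, among them Trp53inp1 (0.78 and 1.02) and Brca1 (1.35 after NKG2D) on the higher side and Gadd45b (-1.52 after NKG2D) on the lower.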

How the data were processed

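RNA of 18 libraries was made with a SMARTer kit, per the labels' protocols, and mapped to mm10; bcl2fastq, DRAGEN and edgeR are named in the submitters' processing notes, with no versions. The authors deposited expected counts per gene without scaling. Of values over 0, 30% were fractional (tolerance 1e-9), so they were rounded, although the design had assumed whole counts. Of 55774 entries, 168 identifiers occurred more than once with the same values, and 1 was kept. The authors' deposited tables give log2 fold changes, p-values and adjusted p-values, used for a count of calls in fresh, primed and NKG2D cells; 54 columns of values per library in them were not used.

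The test was edgeR 4.0.16 quasi-likelihood (R 4.3.3) with TMM factors and 1 mean per group over the 18 libraries, on 14864 genes kept by filterByExpr. Each gene had 12 residual and 5.14 prior degrees of freedom. P-values were adjusted over all tested genes by Benjamini-Hochberg, with 0.05 as threshold, and intervals are 95%. A response is primed over fresh or NKG2D over primed, and differences of responses are KO minus WT in the same fit. CPM values use the TMM factors, and class levels a prior count of 2. The fit was tested on simulated data. Reads carry no molecular identifiers.

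Alternatives were DESeq2 1.42.0, limma voom 3.58.1 with quality weights, RLE factors, 2 other filters, the compared libraries alone, a replicate block, a 2-fold minimum and leaving out each library. The labels do not say what a replicate number marks, so the main test did not pair libraries by it. The members and lists were chosen with earlier results of these data known. By rule, values per library are given for members called between genotypes (at most 4 per class, by p), the 2 of smallest p per class in each response and 9 fixed genes (Mki67, Top2a, Pcna, Mcm2, Cdk1, Ccnd2, Ccnd3, Cdkn1a and Cdkn1b), and up to 2 called genes in each direction per companion list; the text prints a subset. Values of Plk1, Ccnb1, Ccnb2, Cdc20, E2f1 and, after NKG2D, Cdc6 and Mcm6 were added after they were seen, as were those of Cdt1 and Rbl1 in primed cells. Gene models for overlaps were GENCODE M21 on GRCm38. Of the members, 19 share exonic bases with another gene, 5 of them (Rb1, Ccna2, Mcm7, Cdc45 and Cdc20) with 1 of a higher summed count, and the sources used here do not say whether counting used the strand. Processed copies held few reads, at most 2427 for Pcna-ps2 against 94066 for Pcna.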

Additional observations from a re-analysis of the deposited data

Results flagged for a closer look

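In 11 of the 47 genes the response to a treatment differed between the genotypes, by the test of the difference itself in edgeR at adjusted p 0.05. The KO minus WT difference of the priming response was 1.37 on the log2 scale for E2f7, 1.32 for Ccne2, 1.16 for E2f2, 0.77 for Top2a, 0.75 for Cdk2, 0.62 for Rrm1 and 0.61 for Pcna, and -0.64 for Cdk6. All 8 of these rose on priming in both genotypes, so that the 7 positive values mark a larger rise in KO cells and the negative one a smaller rise. Of all genes tested, 4.08% differed upward and 6.41% downward. The difference of the NKG2D response was 1.39 for Cdt1, 0.75 for E2f8 and -0.89 for Ccnd2, where 1.49% of all genes differed upward and 2.07% downward. Ccnd2 fell in both genotypes and more in KO cells, whereas Cdt1 and E2f8 fell in WT cells and did not pass in KO cells. The priming differences of E2f2, Ccne2, Rrm1 and Pcna passed whichever 1 of the 12 libraries was left out. That of Cdk2 was lost without fresh WT replicate 2 (adjusted p = 0.0560), that of Top2a without fresh KO replicate 3, fresh WT replicate 2 or 3 or primed WT replicate 1 (0.0540 to 0.0601), and that of E2f7 without fresh KO replicate 2 or 3, fresh WT replicate 2 or 3, primed KO replicate 2 or primed WT replicate 1 or 2 (0.0557 to 0.0998). That of Cdk6 was lost without any library but fresh WT replicate 1 (0.0592 to 0.154). All 3 differences of the NKG2D response were lost when 1 or another library was left out, as given above.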

How the results depend on the processing

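None of the 47 genes changed direction in a called comparison under the alternatives run. Counts of the 47 that passed and that moved by more than 1.5 times are given here, along with some that moved less. KO against WT in fresh cells gave 0, and DESeq2 gave 1, limma voom 4, no filter 2 and the compared libraries alone 3 of 46 tested. KO against WT in primed cells gave 9, and voom gave 23, a 2-fold minimum 2 and leaving out 1 library 7 to 14 (14 without primed WT replicate 3). After NKG2D the count was 24, 9 with a 2-fold minimum and 19 to 23 without 1 library. NKG2D against primed gave 16 in KO cells, 26 by voom and 5 with a 2-fold minimum, and 25 in WT cells, 8 with a 2-fold minimum. The difference of the priming response gave 8, and DESeq2 gave 13, voom 17, no filter 16, a 2-fold minimum 3 and leaving out 1 library 4 to 12 (4 or 5 without fresh KO replicate 3, fresh WT replicate 2 or 3 or primed WT replicate 1, and 12 without primed WT replicate 3). That of the NKG2D response gave 3, and DESeq2 gave 5, voom 8, a 2-fold minimum 1 and leaving out 1 library 0 to 2. With a replicate block it gave 0, KO against WT after NKG2D 22, and NKG2D against primed in WT cells 23. Each fresh KO library deviated most like the primed KO library of its own number, but such a match did not hold in every pair of groups. The numbers are not taken as pairs, and whether conditions shared animals is not known. Variation between replicates, as edgeR's common coefficient, was 0.1624 among fresh libraries, 0.3245 among primed ones and 0.218 after NKG2D, against 0.2341 in the shared fit. The causes of these shifts were not tested. Depth limits the fresh values of the scarcest gene, Mybl2, at 5 to 12 reads a library.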
